A study of Mus musculus with 6 samples.

Results

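Imprinted genes are read mainly from the copy inherited from 1 parent, and they lie in clusters that share a control region. The 10 genes described here belong to 3 such clusters of the mouse: Dlk1, Meg3, Rian and Mirg on chromosome 12, Mkrn3, Magel2, Ndn, Snrpn and Ube3a on central chromosome 7, and Peg3 near the start of chromosome 7. They were found by symbol in the authors' table of 13192 tested genes, and all 10 were present. Dlk1 and Mkrn3 had been picked because they were higher in the knockout group of this same comparison, and the others because they are their imprinted relatives. The changes of these genes are therefore given as a description and support no test.

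RNA came from mouse cortex at postnatal day 25, precipitated with an anti-HA antibody on beads, a method meant to recover ribosomes that carry an HA-tagged protein and the mRNAs on them. All 6 libraries carry floxed Rheb alleles (Rheb floxp/floxp) and 1 copy of the ribosome tag (Ribo-HA k/+), and the labels name neurons as the cell type. The 3 Control libraries have no further allele in their titles, while the 3 Rheb cKO libraries also carry Syn-Cre, a name used for Cre recombinase driven by the neuronal synapsin promoter, and have the genotype label of a Rheb knockdown. Rheb is a small GTPase that activates the growth-controlling kinase complex mTORC1. No Cre is named for Control, so the presence of Cre, the deletion of Rheb and the origin of the tagged ribosomes cannot be told apart between the groups. The labels do not state that Control ribosomes carried the tag without Cre, so the Control values may be RNA that came down without it, and each Control level and fold below carries that doubt. Whether the 3 libraries of a group come from 3 animals is not in the labels. Levels are FPKM (fragments scaled to gene length and library size), and the authors give a single pooled value for each gene in each group, so no value per library, no SD and no depth is known here. A gene is called at a q under 0.05 in the authors' Cuffdiff test. If libraries are not separate animals, that q measures only the spread between libraries, which may be technical.

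In the brain the clusters have well known roles. The chromosome 12 cluster makes a paternal protein, Dlk1, and maternal long RNAs that hold many small RNAs. The central chromosome 7 cluster corresponds to the human region of Prader-Willi and Angelman syndromes, in which paternal genes such as Snrpn, Ndn and Magel2 or the maternal Ube3a are lost. Parental origin is given as textbook background throughout, since the deposited values do not separate the alleles.

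Sequences at the starts of 4 of these genes are shown because Dlk1 and Mkrn3 are the genes with the large rises, Meg3 is the nearest tested gene downstream of Dlk1, and Peg3 shares its start region with a called gene, Usp29. Each is a window of 300 bases from RefSeq (GRCm38.p6, the assembly of mm10), written 5′ to 3′ on the gene's own strand, and most of each window lies before the start. The windows are chr12:109452573-109452872 (plus strand) for Dlk1, chr12:109540746-109541045 (plus strand) for the first start of Meg3, chr7:62420104-62420403 (minus strand) for Mkrn3 and chr7:6730370-6730669 (minus strand) for Peg3. Capitals mark the motif matches described after the sequences.
Dlk1: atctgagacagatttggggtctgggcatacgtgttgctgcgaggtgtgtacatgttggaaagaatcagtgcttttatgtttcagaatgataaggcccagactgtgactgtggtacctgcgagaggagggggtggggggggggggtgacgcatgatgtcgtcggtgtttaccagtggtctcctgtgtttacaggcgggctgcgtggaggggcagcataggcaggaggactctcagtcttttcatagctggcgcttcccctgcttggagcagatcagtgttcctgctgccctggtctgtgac
Meg3: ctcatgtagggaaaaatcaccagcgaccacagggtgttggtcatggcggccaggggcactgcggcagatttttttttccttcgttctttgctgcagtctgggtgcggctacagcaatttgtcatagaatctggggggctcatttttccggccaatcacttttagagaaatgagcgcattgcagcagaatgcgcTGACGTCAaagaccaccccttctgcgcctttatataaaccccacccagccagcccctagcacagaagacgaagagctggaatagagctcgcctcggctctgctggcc
Mkrn3: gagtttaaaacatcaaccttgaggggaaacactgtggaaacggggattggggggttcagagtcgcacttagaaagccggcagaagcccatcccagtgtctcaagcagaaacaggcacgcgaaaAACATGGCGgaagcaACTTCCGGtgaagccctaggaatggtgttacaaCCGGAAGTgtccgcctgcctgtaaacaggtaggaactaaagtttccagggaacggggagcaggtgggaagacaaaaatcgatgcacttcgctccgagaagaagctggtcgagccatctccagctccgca
Peg3: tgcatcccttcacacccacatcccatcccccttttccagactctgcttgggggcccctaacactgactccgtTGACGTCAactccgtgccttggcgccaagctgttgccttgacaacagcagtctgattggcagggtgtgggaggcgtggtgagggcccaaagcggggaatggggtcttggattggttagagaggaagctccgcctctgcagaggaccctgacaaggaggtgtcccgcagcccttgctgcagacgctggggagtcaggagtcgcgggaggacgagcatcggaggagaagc

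A set of 6 motifs, chosen after these windows had been seen, were searched on both strands: TGACGTCA (a full CRE, the site of CREB and ATF factors), AANATGGCG (the core of the YY1 site), CCGGAAGT (an ETS factor site), the NRF1 site (a palindrome named only), CACGTG (the E-box core of the TFEB site) and TGATGNAA (an ATF4 composite site). The Dlk1 window held 0 of them. The Mkrn3 window held 1 AANATGGCG match and 2 CCGGAAGT matches, 1 on each strand and with no overlap between motifs. Meg3 and Peg3 each had 1 TGACGTCA. Over 32851 windows of the same length, TGACGTCA was present in 1.79%, AANATGGCG in 2.38%, CCGGAAGT in 3.89%, the NRF1 site in 0.971%, CACGTG in 7.15% and TGATGNAA in 3.97%. The number of CpG pairs was 9 for Dlk1, 13 for Meg3, 15 for Mkrn3 and 13 for Peg3, against a median of 7 over all windows. These matches describe the letters only.

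Dlk1, a membrane protein with EGF-like repeats that acts beside the Notch receptors, was the most changed of the 10. Its level went from 2.24 FPKM in Control to 24.8 FPKM in Rheb cKO, 11.1-fold higher (log2 fold change 3.47, q = 0.00161 in the authors' deposited table). That moved it from percentile 22.2 to percentile 72.6 of the levels of all genes in the table. Among the called genes with a finite fold, 1 was the rank of Dlk1 by log2 fold change. The gene (ENSMUSG00000040856.14) lies on the plus strand of chromosome 12 from 109452823 to 109463336 in mm10. In bulk RNA, a change in the number of expressing cells and a change in RNA per cell cannot be told apart, here and for each gene below.

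Mkrn3, a makorin RING zinc finger protein whose loss of function in people brings early puberty, was the second member with a large rise. It went from 0.351 to 2.02 FPKM, 5.75-fold higher (log2 fold change 2.52, q = 0.00161 in the authors' deposited table). In Control it was among the lowest genes listed, at percentile 0.591 of all levels, and in Rheb cKO it stood at percentile 19.8. Because the level is low, its log2 fold change depends on how low values are treated and was 1.16 with 1 added to each FPKM. The mm10 position of Mkrn3 (ENSMUSG00000070527.3) is 62417593 to 62420139 on chromosome 7, minus strand. The signed Cuffdiff statistic in the authors' deposited table was higher for Mkrn3 (4.75) than for Dlk1 (4.04), although the fold of Dlk1 was the larger.

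**Figure D1:**
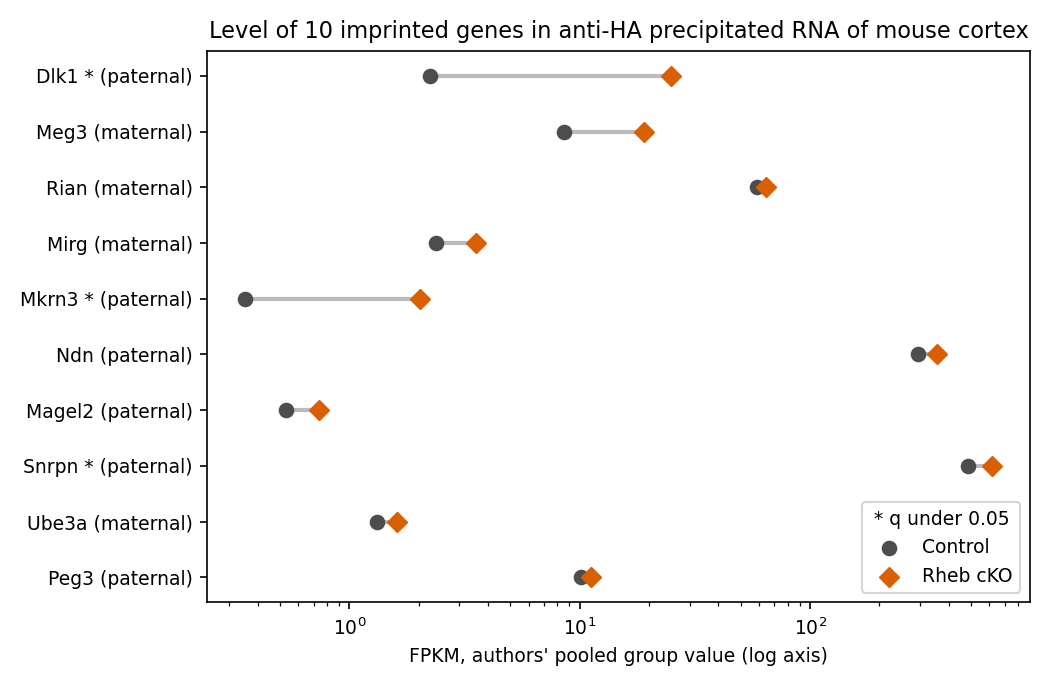
Level of each of the 10 imprinted genes as the authors' pooled FPKM (log axis), with Control as circles and Rheb cKO as diamonds, the allele mainly read in brackets, and an asterisk for a q under 0.05. Dlk1 (2.24 to 24.8 FPKM) and Mkrn3 (0.351 to 2.02 FPKM) show the longest shifts, and all 10 diamonds lie to the right of their circles.

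The maternal long RNAs downstream of Dlk1 were higher in value but not called. Meg3, the long RNA next to Dlk1, was at 8.54 FPKM in Control and 19.04 FPKM in Rheb cKO (log2 fold change 1.16, unadjusted p = 0.0207, q = 0.138 in the authors' deposited table). This 2.23-fold difference had a Cuffdiff statistic of 1.497 in the authors' deposited table. Rian, which hosts many box C/D small nucleolar RNAs, was at 59.1 and 64.4 FPKM (log2 fold change 0.12, q = 0.674 in the authors' deposited table). Mirg, a host of microRNAs, was at 2.39 and 3.56 FPKM (log2 fold change 0.58, q = 0.263 in the authors' deposited table). The ratio of Dlk1 to Meg3, a paternal to a maternal product, was 0.262 in Control and 1.30 in Rheb cKO by FPKM. Meg3 relative to Rian went from 0.145 to 0.296, so the maternal RNAs differed among themselves in these pooled values, with no error to set beside the ratios. On the plus strand of chromosome 12 in mm10, Meg3 (ENSMUSG00000021268.14) lies from 109541001 to 109571726, Rian (ENSMUSG00000097451.6) from 109603882 to 109661716 and Mirg (ENSMUSG00000097391.5) from 109729764 to 109749460.

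The 3 maternal RNAs are also precursors of microRNAs, which a gene level FPKM does not measure. By position in the GENCODE M21 models, 3 annotated mature microRNAs lie inside Meg3, 6 inside Rian and 26 inside Mirg. These 35 have 34 distinct seeds, and the shared one, GGUUGCC, belongs to miR-453 and miR-496a-5p in Mirg. A microRNA of each host is shown to give its content, from RefSeq (GRCm38.p6), with the seed (bases 2 to 8) in capitals.
mmu-miR-770-5p (in Meg3): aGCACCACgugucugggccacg
mmu-miR-370-3p (in Rian): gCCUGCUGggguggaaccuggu
mmu-miR-134-5p (in Mirg): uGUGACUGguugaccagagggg

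Long RNAs that stay largely in the nucleus were also read outside the imprinted clusters. Of 5 tested, 4 rose and 0 fell, beside 4.14% of all genes called higher and 4.58% lower, and their median log2 fold change was 0.73. Rmst did not pass (log2 fold change 0.11, q = 0.960 in the authors' deposited table). They include Malat1 (4.71 to 10.2 FPKM, q = 0.0104), Snhg11 (3.78 to 6.74 FPKM, q = 0.00291) and Neat1 (1.29 to 2.15 FPKM, q = 0.0292) in the authors' deposited table. The summed level of the 5 was 13.1 FPKM in Control and 23.7 FPKM in Rheb cKO. The part of this in the values of Meg3, Rian and Mirg was not tested.

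Around Mkrn3, the nearest imprinted genes differed far less than Mkrn3 itself, which had been picked for its rise. Magel2, a MAGE family protein that works with a ubiquitin ligase in endosomal recycling, was at 0.531 and 0.741 FPKM (log2 fold change 0.48, q = 0.316 in the authors' deposited table). Ndn, which encodes necdin, a MAGE protein known as a growth suppressor in neurons, was at 295 and 354 FPKM (log2 fold change 0.26, unadjusted p = 0.0247, q = 0.155 in the authors' deposited table). Mkrn3 relative to Magel2 went from 0.661 to 2.72 by FPKM, whereas Magel2 relative to Ndn was 0.180% in Control and 0.209% in Rheb cKO. Mkrn3 and Magel2 were both low in Control. With 1 added to each FPKM, the log2 fold change was 1.16 for Mkrn3 and 0.18 for Magel2. By GENCODE M21, the start of Magel2 is at -43.1 kb and that of Ndn at -73.6 kb from that of Mkrn3, where minus means toward lower coordinates. In mm10, Magel2 (ENSMUSG00000056972.5) spans 62376979 to 62381640 and Ndn (ENSMUSG00000033585.4) 62348277 to 62349928, both on the plus strand of chromosome 7.

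Snrpn, which encodes SmN, a brain form of a core splicing protein, was the most abundant of the 10 and the third that rose. It went from 482 to 618 FPKM, a 1.28-fold difference (log2 fold change 0.36, p = 0.00435, q = 0.0499 in the authors' deposited table). No called gene had a larger q, and the next gene by q stood at 0.0502 in the authors' deposited table. Snrpn shares 9601 bases of its gene span with Snurf on the same strand, and the authors' table gives both the locus of chromosome 7 from 59937371 to 60140219. Snurf, at 27.5 and 38.1 FPKM, was not called (log2 fold change 0.47, q = 0.951 in the authors' deposited table), and how reads were split between them is uncertain. Snrpb, the paralog that other tissues use in place of Snrpn, was at 135 and 171 FPKM and was not called (log2 fold change 0.34 with q = 0.0622, from the authors' deposited table). The ratio of Snrpn to Snrpb was 3.57 in Control and 3.61 in Rheb cKO. Among the 12 other core snRNP genes 0 were called in either direction by Cuffdiff, with 2 higher at an unadjusted p under 0.05 and a median log2 fold change of 0.02.

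Ube3a, the ubiquitin ligase that neurons read from the maternal copy, was at 1.32 and 1.61 FPKM (log2 fold change 0.29, q = 0.348 in the authors' deposited table). Snhg14, the paternal RNA that runs antisense through Ube3a, was at 0.620 and 0.918 FPKM and was not called (log2 fold change 0.57, unadjusted p = 0.00895, q = 0.0815 in the authors' deposited table). Their GENCODE M21 models share 3613 bases on opposite strands. The authors' table instead gives Snhg14 the locus of Snrpn and Snurf, from 59937371 to 60140219, which does not reach Ube3a. How reads were split between Snhg14, Snrpn and Snurf is uncertain. The library kit keeps strand, but the strand setting of the counting is not given in the sources used here. Whether the overlap with Ube3a entered these low values is unknown. Ube3a (ENSMUSG00000025326.8) lies on the plus strand of chromosome 7 from 59228752 to 59306727 in mm10. Of 9 tested partners and reported substrates of Ube3a, Arc, a protein of active synapses, fell from 125 to 78.2 FPKM (log2 fold change -0.68, q = 0.00161 in the authors' deposited table). The other 8 were not called, beside 4.58% of all genes called lower and 4.14% higher.

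Peg3, a zinc finger protein made from the paternal copy, was at 10.1 and 11.2 FPKM (log2 fold change 0.14, q = 0.580 in the authors' deposited table). Usp29, a deubiquitinase gene that starts 146 bases away on the other strand, rose from 2.38 to 3.28 FPKM (log2 fold change 0.46, q = 0.0302 in the authors' deposited table). The ratio of Peg3 to Usp29 went from 4.26 to 3.41. The mm10 position of Peg3 (ENSMUSG00000002265.12) is 6703892 to 6730421 on chromosome 7, minus strand.

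Together, 3 of the 10 genes were called higher and 0 lower. Over all 13192 tested genes, 4.14% were called higher and 4.58% lower, 8.72% in either direction. At an unadjusted p under 0.05, 5 of the 10 were higher and 0 lower, beside 11.5% of all genes higher and 21.2% in either direction. A log2 fold change of 1 or more was seen in 3 of the 10 and in 1.61% of all genes, and 2 of the 10 also had a q under 0.05, beside 0.653% of all genes. Those shares are given beside the count without a reading, since the members were chosen with this comparison in view. All 10 had a log2 fold change above 0, from 0.12 to 3.47, with a median of 0.42. Of all 13175 genes with a finite fold, 54.6% were above 0, and the median was 0.03. Without Dlk1 and Mkrn3, 1 of 8 was called, and the median was 0.32. The order of levels was headed by Snrpn, Ndn and Rian in both groups. Dlk1 moved from rank 7 of the 10 in Control to rank 4 in Rheb cKO, passing Mirg, Meg3 and Peg3, and Mkrn3 moved from rank 10 to rank 8. Whether neighbours in that order differ beyond their spread cannot be given from pooled values.

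**Figure D2:**
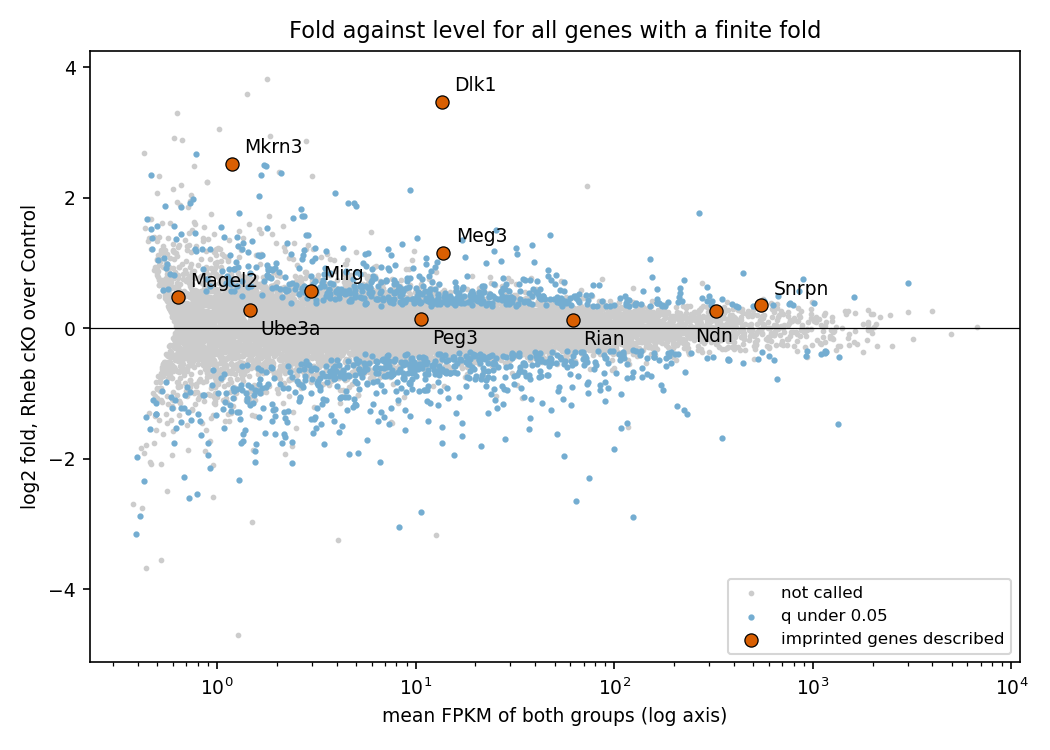
Log2 fold change of Rheb cKO over Control against the mean FPKM of both groups (log axis) for all 13175 genes with a finite fold, with genes at a q under 0.05 in blue and the 10 imprinted genes in orange. Dlk1 (3.47) stands above every called gene, Mkrn3 (2.52) lies at a low level, and the other 8 lie between 0.12 and 1.16.

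By parent of origin, the 4 maternal genes (Meg3, Rian, Mirg and Ube3a) had 0 called by Cuffdiff and 1, Meg3, higher at an unadjusted p under 0.05. The 6 paternal genes had 3 called, among them Dlk1 and Mkrn3, which were picked for their rise. Leaving out Dlk1 and Mkrn3, the 4 remaining paternal genes had 1 called, Snrpn, beside 4.14% of all genes called higher. Their median log2 fold change was 0.31, and that of the 4 maternal genes 0.43. Imprinted genes of other clusters were read in the same way. Of 31 tested, 2 were called higher and 1 lower, beside 4.14% and 4.58% of all genes. In value, 22 had a log2 fold change above 0 and 9 below, with a median of 0.15. Ppp1r9a, which encodes the actin-binding protein neurabin, rose from 8.47 to 13.3 FPKM (log2 fold change 0.66, q = 0.00161 in the authors' deposited table). Nap1l5, a neuronal relative of nucleosome assembly proteins, rose from 119 to 154 FPKM (log2 fold change 0.37, q = 0.0392 in the authors' deposited table). Ddc, the decarboxylase that makes dopamine and serotonin, fell from 6.49 to 3.61 FPKM (log2 fold change -0.84, q = 0.0170 in the authors' deposited table). Among these clusters, 14 genes with mainly paternal expression had a median log2 fold change of 0.09, and 6 with mainly maternal expression 0.17.

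The rise of Dlk1 and Mkrn3 was set beside the genes around them, namely those whose locus in the table lies at least in part within 1 Mb of Dlk1, Mkrn3 or Peg3. Of 10 tested genes near Dlk1 that are not on the imprinted list, 9 were not called, and their median log2 fold change was 0.04. Slc25a29, a mitochondrial carrier of basic amino acids, was the exception and fell from 15.0 to 7.78 FPKM (log2 fold change -0.95, q = 0.00161 in the authors' deposited table). Dio3, the enzyme that inactivates thyroid hormone at the far end of the Dlk1 cluster, was at 4.21 and 3.65 FPKM (log2 fold change -0.20, q = 0.682 in the authors' deposited table). Magel2 and Ndn were the only other tested genes in the window of Mkrn3. Near Peg3, 9 such genes had a median of 0.23, and Zfp28, a zinc finger gene, rose from 0.847 to 1.60 FPKM (log2 fold change 0.92, q = 0.00291 in the authors' deposited table). The share of all genes called in either direction was 8.72%.

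**Figure D3:**
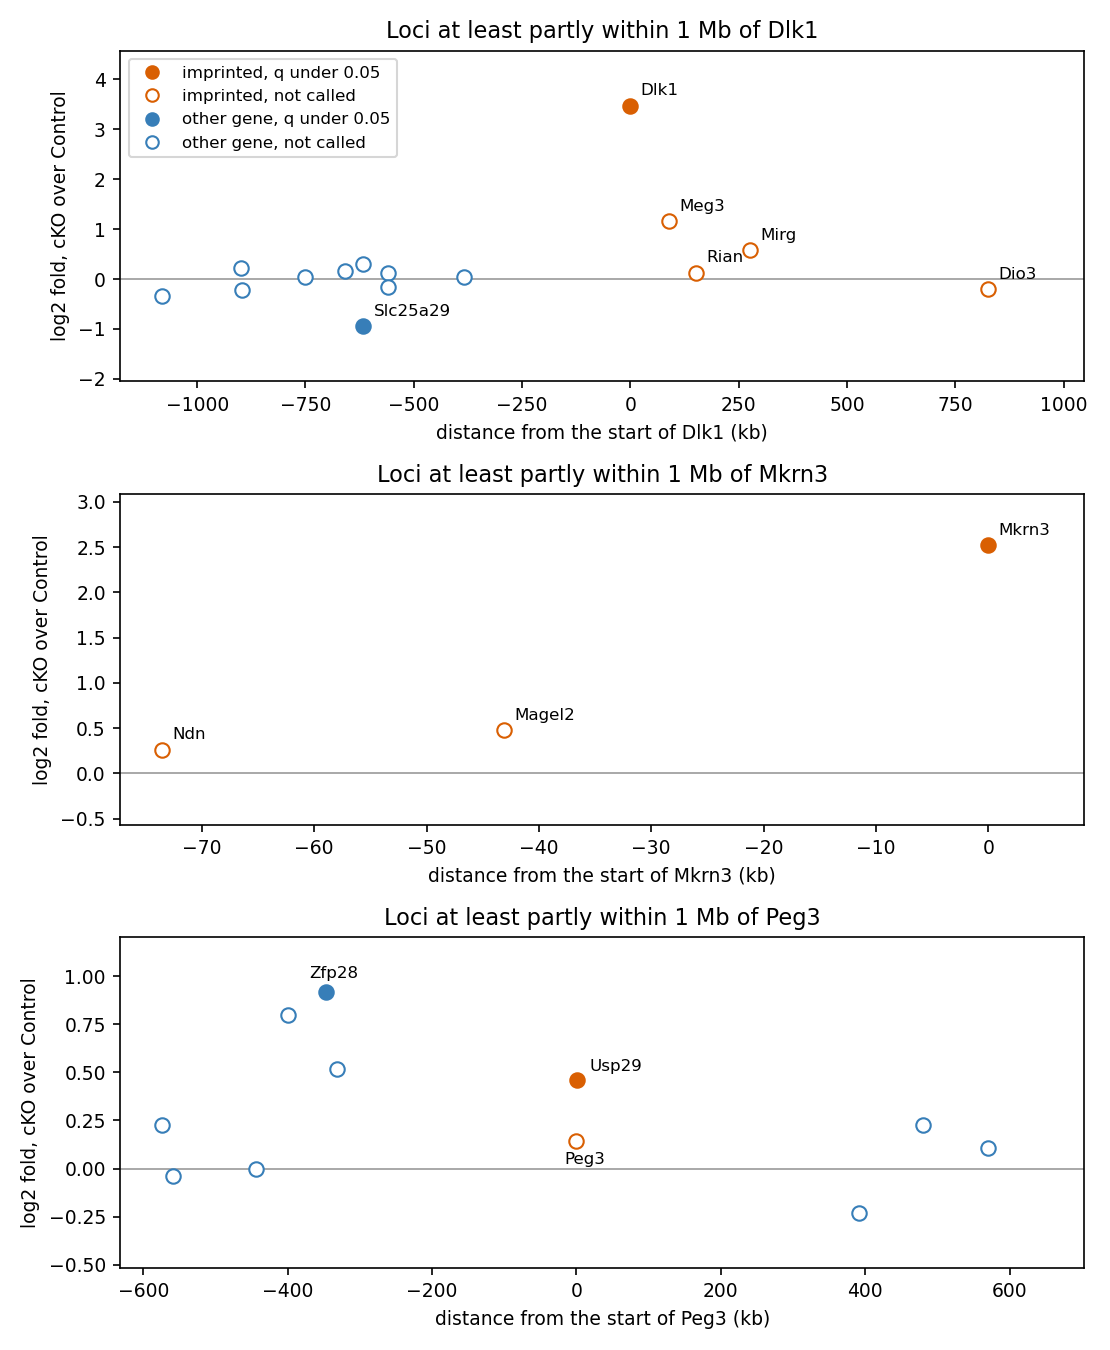
Log2 fold change of each tested gene whose locus lies at least in part within 1 Mb of Dlk1, Mkrn3 or Peg3 against the distance between gene starts in kb, with imprinted genes in orange, other genes in blue, filled points for a q under 0.05, and names for imprinted or called genes. Dlk1 (3.47) and Mkrn3 (2.52), both picked for their rise, stand above the genes beside them, of which Meg3 (1.16), Magel2 (0.48) and Ndn (0.26) are not called.

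Genes linked to these proteins were described as lists, to be read beside the 4.14% of all genes called higher and 4.58% called lower. Of the 15 tested Notch receptors, ligands and targets, Heyl, a target gene, rose from 0.816 to 1.42 FPKM (log2 fold change 0.80, q = 0.0467 in the authors' deposited table), and the other 14 were not called. The list had a median log2 fold change of -0.01. Dlk2, the paralog of Dlk1, was at 27.8 and 27.6 FPKM (log2 fold change -0.01, q = 0.988 in the authors' deposited table). Of 5 tested makorins and puberty genes other than Mkrn3, Tac2, which encodes neurokinin B, rose from 17.8 to 36.2 FPKM (log2 fold change 1.02, q = 0.00161 in the authors' deposited table). Mkrn1, the widely expressed makorin, was at 73.8 and 84.7 FPKM (log2 fold change 0.20, q = 0.417 in the authors' deposited table). Kiss1, the puberty peptide gene, was at 1.09 FPKM in Control and is listed at 0 in Rheb cKO (q = 0.171 in the authors' deposited table). Of 6 MAGE relatives other than Ndn and Magel2, Magee2 rose from 2.48 to 3.77 FPKM (log2 fold change 0.60, q = 0.0260 in the authors' deposited table). Of 10 tested partners of MAGE proteins, 0 were called by Cuffdiff, 0 of them at an unadjusted p under 0.05, and their median was 0.05. Fkbp4 and Vps29, the partners picked by the naming rule, had log2 fold changes of -0.09 and 0.04 in the authors' deposited table.

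Proteins that set or keep imprints included 3 that rose among 9 tested, beside 4.14% of all genes called higher, with a median log2 fold change of 0.33. Dnmt3a, a methyltransferase that sets DNA methylation, rose from 12.8 to 19.1 FPKM (log2 fold change 0.57, q = 0.00161 in the authors' deposited table). Dnmt1, which copies methylation at replication, rose from 4.72 to 6.88 FPKM (log2 fold change 0.55, q = 0.00406 in the authors' deposited table). Zfp445, a zinc finger protein that keeps imprints, rose from 0.382 to 0.727 FPKM (log2 fold change 0.93, q = 0.0420 in the authors' deposited table) and is named after its value was seen. Uhrf1, a partner of Dnmt1, was at 0.824 and 0.448 FPKM and was not called (log2 fold change -0.88, unadjusted p = 0.0180, q = 0.126 in the authors' deposited table). Zfp57 went the other way in value, at 1.48 and 2.32 FPKM, and was not called (log2 fold change 0.65, unadjusted p = 0.0209, q = 0.140 in the authors' deposited table). Ctcf, Trim28, Setdb1 and Smchd1 were not called either.

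**Figure D4:**
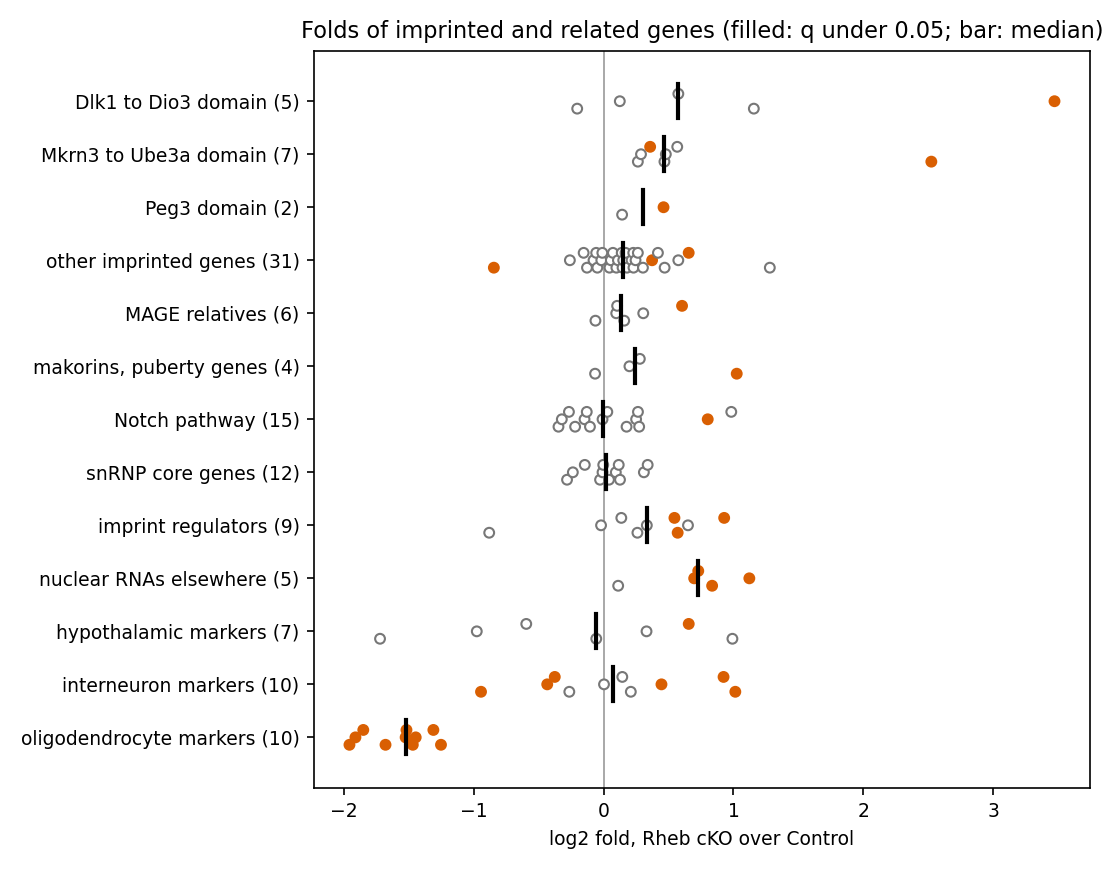
Log2 fold change of each tested gene with a finite fold in 13 lists, 1 row a list with the number of such genes in brackets. Filled orange points mark a q under 0.05 and a black bar the median. Kiss1, listed at 0 in Rheb cKO, has no finite fold and is not drawn. The Dlk1 and Mkrn3 clusters reach furthest to the right (3.47 and 2.52), other imprinted genes centre on 0.15, and the oligodendrocyte markers lie furthest to the left, with a median of -1.52.

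Called genes were also ordered by their likeness to Dlk1 and Mkrn3, as a description. By distance in log2 fold change and log2 mean FPKM, the 3 nearest called genes to Dlk1 were C4b (log2 fold change 2.11), Ifitm3 (1.38) and Col6a2 (1.91) in the authors' deposited table, at distances of 1.46, 2.13 and 2.14. For Mkrn3 the nearest 2 were Tcp11 (2.35) and Glycam1 (2.50) in the authors' deposited table, at distances of 0.528 and 0.537. With 2 pooled values per gene this likeness covers 1 contrast only.

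Dlk1, Magel2, Ndn and Peg3 are known as abundant in the hypothalamus, so its markers and those of other cells were read in the same libraries. The marker counts stand beside 4.14% of all genes called higher and 4.58% lower. Of 14 hypothalamic markers 7 were tested, none at 0. Trh rose (3.78 to 5.96 FPKM, q = 0.0397 in the authors' deposited table), and the other 6 were not called. At an unadjusted p under 0.05, 3 of the 7 were higher and 1 lower, 4 had a log2 fold change below 0, and the median was -0.06. Gal, a hypothalamic neuropeptide gene, was at 1.41 and 0.428 FPKM (log2 fold change -1.72, q = 0.102 in the authors' deposited table). Avp, a gene of the same list, went the other way in value, at 2.98 and 5.92 FPKM (log2 fold change 0.99, q = 0.178 in the authors' deposited table). The sum of the 7 was 79.7 FPKM in Control and 99.7 FPKM in Rheb cKO. Hap1 made up most of that sum (66.0 and 83.0 FPKM) and is widely expressed in brain. Leptomeningeal markers, among them the imprinted Igf2, had 3 of 10 tested, with sums of 16.0 and 17.7 FPKM. Of these, 0 were called by Cuffdiff, with 1 higher at an unadjusted p under 0.05. Interneuron markers split, with 3 of 10 higher and 3 lower, and their sums were 1948 and 1509 FPKM. All 10 oligodendrocyte markers fell, from a sum of 3757 to 1340 FPKM. Astrocyte markers had 1 of 10 higher and 4 lower (sums 2302 and 1803 FPKM), mural cell markers 5 of 9 lower (88.9 and 51.5 FPKM), and striatal markers 3 of 10 lower (1737 and 1287 FPKM). Microglia (29.1 and 35.5 FPKM over 9 markers) and endothelial markers (6.85 and 6.03 FPKM over 3) had 0 called by Cuffdiff. At an unadjusted p under 0.05, 2 microglia markers were higher, and 0 endothelial markers passed in either direction. Excitatory markers had 0 of 10 called by Cuffdiff, with 3 higher at an unadjusted p under 0.05 (1158 and 1339 FPKM). Pan-neuronal markers, read against the labelled cell type, summed to 3680 and 3779 FPKM, with 1 of 10 called lower and 3 higher at an unadjusted p under 0.05. In Control the 10 oligodendrocyte markers thus summed to more than the 10 pan-neuronal ones. Mbp alone held 1973 FPKM of that oligodendrocyte sum, so the order rests on Mbp and on which genes were listed. The part of these cell types in the values of the imprinted genes was not tested. The targeted gene, Rheb, was lower in the group labelled Rheb cKO, at 9.20 FPKM against 22.7 FPKM in Control (log2 fold change -1.30 in the authors' deposited table).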

How the data were processed

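Cortical RNA from an anti-HA precipitation was sequenced in 3 Control and 3 Rheb cKO libraries after a strand-keeping mRNA library preparation (labels' protocols). Tools and build, per the submitters' processing notes, are Cuffdiff 2.2.1, TopHat2 2.1.0 and mm10, without settings. The authors' FPKM columns hold a pooled value for each group, beside the deposited log2 fold change (Rheb cKO over Control, no pseudocount), the deposited Cuffdiff score, and the deposited p-value and q-value over 13192 genes. Recomputing the log2 fold from FPKM moved no gene by more than 1.23e-05. The smallest p-value, 5e-05, is shared by 410 genes at q = 0.00161. Depth per library is unknown. The shorter of 2 deposited tables repeats the 1150 called genes, and 1 line of the longer one is empty here.

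Members, lists and tests were chosen with earlier results of these data known. Lists are described by counts and by medians over genes with a finite fold (17 genes at 0 in a group left out). Named were all members, up to 3 called genes of each list with the largest absolute fold at a mean FPKM of 1 or more (else the 2 most abundant), called genes with a locus at least in part within 1 Mb of Dlk1, Mkrn3 or Peg3, and the 3 called genes most like Dlk1 and Mkrn3, of which 1 is not reported here. Cell type lists are given by counts and sums, and other genes named were chosen after their values were seen. Coordinates are the table's, counted from 1; strand and distances are from GENCODE M21, of the same build. The alternatives were other pseudocounts (0.1 and 1), centring, equal FPKM sums, other q thresholds (0.01 and 0.1) and filters on mean FPKM (1 and 5). Recomputed Benjamini-Hochberg values were tested on simulated data. The work used matplotlib 3.10.9, scipy 1.17.1, pandas 2.3.3 and numpy 2.4.6 under Python 3.11.15.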

Additional observations from a re-analysis of the deposited data

How the results depend on the processing

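All 10 imprinted genes kept a log2 fold change above 0 under each of 4 other scalings (40 values): pseudocounts of 1 and 0.1, centring on the median fold and equal FPKM sums. No value could have reversed, so this is no support. A pseudocount cannot change the sign of a fold. Centring removed a median of 0.03 and equal sums a log2 ratio of -0.00068, while the smallest member fold was 0.12 (Rian). With 1 added to each FPKM the log2 fold change was 3.00 for Dlk1, 1.16 for Mkrn3, 0.18 for Magel2 and 0.17 for Ube3a. At a q under 0.01 (4.71% of all genes in either direction) the members called higher were 2, Dlk1 and Mkrn3. At a q under 0.1 (12.4% of all genes in either direction) they were 3, as at 0.05. With Benjamini-Hochberg adjustment restricted to genes averaging at least 5 FPKM over both groups, Mkrn3 is not tested. Dlk1 and Snrpn remained, with q = 0.0469 for Snrpn. Dlk1 passes that filter only through Rheb cKO (24.8 FPKM against 2.24 FPKM in Control), so its place there is no support. Over all imprinted clusters, 6 of 45 tested genes were called higher and 1 lower, beside 4.14% and 4.58% of all genes. At a q under 0.01 there were 3 higher (Dlk1, Mkrn3 and Ppp1r9a) and 0 lower. Both counts of higher genes hold Dlk1 and Mkrn3, which were picked for their rise. No library could be left out, since the values are pooled. No paired analysis was possible because the columns carry no replicate numbers. Depth per library is unknown, so what it limits cannot be given.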
